A study of Mus musculus with 5 samples.

Results

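Proteasome subunit genes were measured in mouse hepatocytes sorted by a fluorescent probe of fatty acid oxidation. Members were chosen by name alone, as every entry of the gene table whose symbol is Psma, Psmb, Psmc, Psmd or Psme followed by a number, pseudogenes excepted. The rule found 45 of 13966 entries and used no measured value, although members were chosen with earlier results of these data known. Of these, 39 passed a filter on low values, a mean of at least 5.02 normalised read counts over the 5 libraries, and were analysed among the 8973 genes that passed it. The 39 comprised 14 constitutive core particle subunits, 17 regulatory particle subunits, 2 inducible core subunits, 2 chaperones of regulatory particle assembly and 4 activators.

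The proteasome is the barrel-shaped protease that degrades ubiquitin-tagged proteins. Its core particle stacks rings of alpha subunits, which form the gate, on rings of beta subunits, some of which carry the proteolytic sites. The regulatory particle caps the barrel: its base unfolds substrates with a ring of ATPases, and its lid removes ubiquitin. In interferon-stimulated cells and in immune cells, inducible beta subunits take the place of the catalytic ones, and alternative activators can replace the regulatory particle. In liver, as elsewhere, the transcription factor encoded by Nfe2l1 is known to raise subunit genes together when proteasome activity is short.

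Hepatocytes came from ICR mice, an outbred stock, that had been treated with bezafibrate or left as controls. Bezafibrate is a fibrate drug that activates peroxisome proliferator-activated receptors (PPARs), the lipid-sensing nuclear receptors that control fatty acid oxidation genes. Cells of control mice were sorted into a probe-negative and a probe-positive gate, and cells of bezafibrate mice into a negative, a positive and a high gate, with 1 library for each of the 5 groups. Neither the number, age and sex of the mice, nor the dose, nor whether gates shared a liver is given in the sources used here, so treatment cannot be told apart from mouse. With 1 library a group there is no replicate check, and every difference given here describes these libraries.

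The libraries held 5056884 to 7146578 recovered reads, of which 4197 to 9666 fell on the 45 members. Values are the authors' normalised read counts. Lists of 5 values start with the control libraries, negative then positive gate, and go on with the bezafibrate libraries, negative, positive and then high gate. Intervals on ratios are exact Clopper-Pearson 95% intervals. They cover counting error only and treat each read as a separate molecule. Reads counted without molecular identifiers may be copies of 1 molecule, and the intervals are then too narrow. The ribosomal RNA precursor Rn45s took 34.8% to 36.3% of the reads of the control libraries and 10.5% to 18.5% of those of the bezafibrate libraries. Albumin (Alb), the main secreted product of hepatocytes, took 2.12% to 2.17% and 5.10% to 7.58%. Members made up 12.1, 12.7, 15.1, 14.9 and 14.7 of every 10000 reads outside Rn45s. The part of library composition in the differences between treatments was not tested. All 10 hepatocyte markers were present, with summed levels of 45949 to 107126 normalised read counts. Summed levels were 5.83 to 10.4 for Kupffer cell markers (6 of 10 measured), 16.0 to 28.2 for endothelial markers (7 of 8), 2.80 to 13.1 for cholangiocyte markers (4 of 6) and at most 0.616 for T and NK cell markers (1 of 8). Stellate cell markers (7 of 8) summed to 103 to 113 in the control libraries and 31.0 to 40.9 in the bezafibrate libraries, most of it Reln. None of the 5 B cell or 6 neutrophil markers was measured. In sorted bulk samples, fewer cells of a type and less RNA per cell cannot be told apart.

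The Nfe2l1 product and its relative encoded by Nfe2l2 bind antioxidant response elements, so promoters were searched for the core letters of that element, TGACNNNGC, on both strands in the 250 bases before the gene start. RefSeq's table (GRCm38.p6) held 38 of the 45 members; Psma8, Psmb1, Psmb2, Psmb7, Psmc3, Psmd3 and Psmd7 were not matched. The letters occurred in 5 of the 38 members (13.2%). Among genes with a window, they occurred in 14% of the 6915 analysed and in 11.5% of all 27025. The members' share was near this background. The match is shown in capitals for the 4 of the 5 members in which it lay outside GENCODE exons and RefSeq genes. They are a catalytic core subunit (Psmb5), an ATPase (Psmc6), a lid subunit (Psmd12) and an assembly chaperone (Psmd9). The match of the fifth, Psmb6, lay inside a GENCODE exon or RefSeq gene. Each sequence runs 5′ to 3′ along the gene's strand and ends before the annotated gene. The windows are chr14:54618023-54618245 on the minus strand for Psmb5, chr14:45329574-45329787 on the plus strand for Psmc6, chr11:107479278-107479483 on the plus strand for Psmd12 and chr5:123227940-123228189 on the plus strand for Psmd9. A longer GENCODE model of Psmd9 starts upstream of its window.
Psmb5: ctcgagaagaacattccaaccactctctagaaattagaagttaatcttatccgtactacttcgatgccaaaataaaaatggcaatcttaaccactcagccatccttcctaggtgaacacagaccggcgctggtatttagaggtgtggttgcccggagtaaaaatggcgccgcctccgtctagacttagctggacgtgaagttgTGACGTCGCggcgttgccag
Psmc6: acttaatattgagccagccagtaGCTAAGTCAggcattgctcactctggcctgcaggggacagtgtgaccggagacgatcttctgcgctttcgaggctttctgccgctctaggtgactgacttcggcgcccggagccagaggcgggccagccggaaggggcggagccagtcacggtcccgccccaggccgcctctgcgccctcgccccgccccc
Psmd12: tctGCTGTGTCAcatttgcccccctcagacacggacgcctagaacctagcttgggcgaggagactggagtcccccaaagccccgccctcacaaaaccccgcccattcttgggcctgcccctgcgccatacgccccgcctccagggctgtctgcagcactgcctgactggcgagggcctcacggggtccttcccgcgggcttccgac
Psmd9: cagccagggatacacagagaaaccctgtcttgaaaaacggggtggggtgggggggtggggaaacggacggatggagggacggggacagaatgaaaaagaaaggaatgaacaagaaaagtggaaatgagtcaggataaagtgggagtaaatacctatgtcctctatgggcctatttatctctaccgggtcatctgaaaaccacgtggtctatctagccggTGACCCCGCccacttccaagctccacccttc
Counted from the gene start in RefSeq's table, the match began 47 bases before it in Psmb5, 31 in Psmd9, 227 in Psmc6 and 247 in Psmd12. That start lies downstream of the end of the printed stretch for Psmb5, Psmc6 and Psmd12, whose windows were shortened to leave out annotated exons. The PPAR direct repeat is AGGTCA followed by any 1 base and AGGTCA again. On either strand, it was found in 0 of the 38 members and in 11 of all 27025 genes with a window (0.0407%). With so rare a match, 38 members are too few for the 0 to set them apart from other genes. A match of letters is a description of the sequence, not a measured binding site.

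All 14 core particle subunits had higher values in each of the 3 bezafibrate libraries than in either control library. Among the 17 regulatory particle subunits 13 did so, and Psmd3 and Psmd4 lay the other way. Over all 39 members, 32 had every bezafibrate library above every control library, against 35.7% of all genes analysed and 57.2% of the 866 genes with the shortest transcripts (the lowest 2 of 20 length bins). Only the 2 named members had every bezafibrate library below, against 33.8% of all genes. The median core subunit stood at 12.5, 14, 30.5, 27.1 and 24.4 normalised read counts, and the median regulatory subunit at 26.3, 27.2, 40.4, 31.4 and 30.5. Raw counts depend on transcript length, so these medians compare libraries, not the classes with each other.

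**Figure D1:**
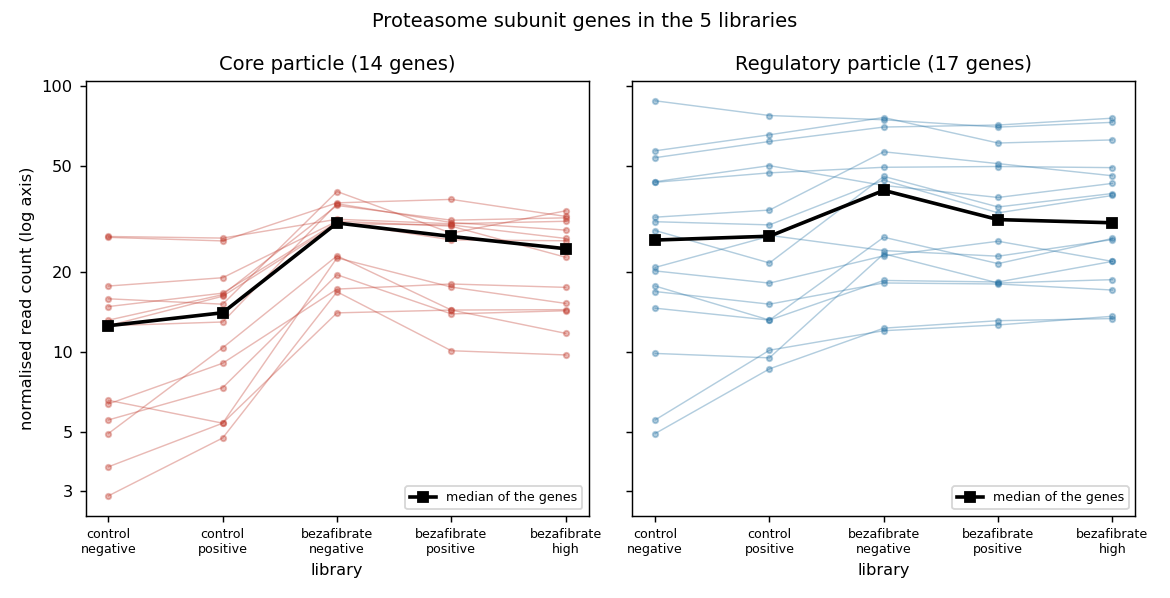
Normalised read count (log axis) of each core particle gene (left, 14 genes) and regulatory particle gene (right, 17 genes) in the 5 libraries; thin lines join the values of a gene and the black squares are the median over genes. The core median is 12.5 and 14 in the control libraries and 24.4 to 30.5 in the bezafibrate libraries, while the top regulatory gene of the control libraries, Psmd3, lies lower in the bezafibrate libraries.

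In the negative gate, the median difference between bezafibrate and control, on the log2(value + pseudocount) scale with a pseudocount of 1.0035 normalised read counts, was 0.72 for the 39 members, 1.30 for the core particle and 0.41 for the regulatory particle, against 0.02 for all genes. On this scale, differences were above 0 for 35 members (51.4% of all genes), at least 1.5-fold higher for 22 (22.6%) and at least 2-fold higher for 13 (10.2%), and no member was 1.5-fold lower (17.5%). In the positive gate the medians were 0.50, 0.85 and 0.24, against 0.00 for all genes. There, 33 members were above 0 (50.4%), 15 were at least 1.5-fold higher (15.7%), 3 were at least 2-fold higher (4.94%), and none was 1.5-fold lower (11.6%). The 3 were Psma5, Psma6 and Psmb7. The counting interval of the ratio lay above 1 for 29 members in the negative gate (32.3%) and 23 in the positive gate (25.9%), and below 1 only for Psmd3 in the negative gate (29% of all genes) and Psmd4 in the positive gate (24.4%).

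The scaling of the libraries moved these counts. Scaled by column totals, which include Rn45s, the median of all genes shifted by 0.22 in the negative and 0.20 in the positive gate, and 5789 and 5893 of the 8973 genes lay above 0 in place of 4614 and 4521. Members above 0 then numbered 38 and 36 of 39. Under totals without the 100 highest genes they numbered 35 and 33, as reported. All 14 core subunits were above 0 in both gates under each of these scalings.

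**Figure D2:**
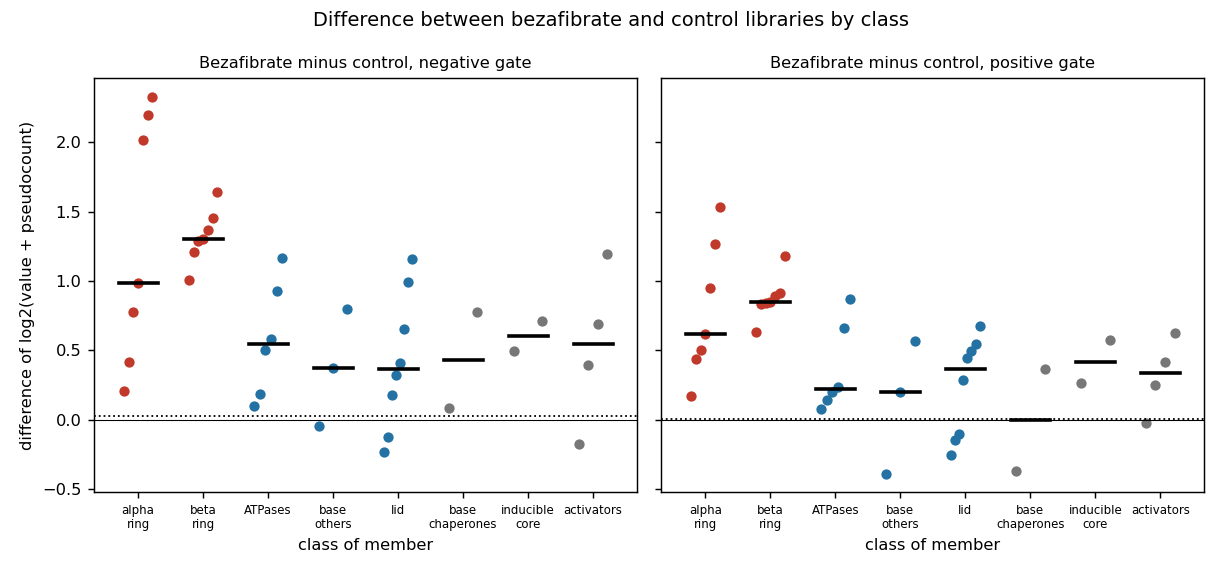
Difference of log2(value + pseudocount) between bezafibrate and control libraries in the negative (left) and positive (right) gate for each of the 39 members, by class; horizontal bars are class medians and the dotted line is the median of all genes analysed. Every core subunit lies above 0 in both panels; 3 regulatory subunits in the negative gate and 4 in the positive gate lie below 0.

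Among the alpha subunits, which form the outer rings and the gate of the core, the median difference was 0.99 in the negative gate and 0.62 in the positive gate. The members ranged from little difference to the largest of all subunits. Psma6, at chr12:55384222-55418454 (GRCm38, 7 exons), had 3.70, 5.39, 22.5, 17.5 and 15.2 normalised read counts. Both control libraries were low and the 3 bezafibrate libraries high, with no overlap. The bezafibrate to control ratio was 6.10 (3.74 to 10.5) in the negative gate and 3.25 (2.09 to 5.23) in the positive gate. Psma2, at chr13:14613240-14674236, had 2.87, 4.74, 16.8, 10.1 and 9.73. Its ratio of 5.84 (3.36 to 11) in the negative gate came with 2.13 (1.29 to 3.63) in the positive gate, since the bezafibrate negative library was its highest and the control negative library its lowest. Psma1 had 4.93, 10.3, 22.9, 14.3 and 11.7, and its ratio was 4.65 (3.03 to 7.46) in the negative and 1.39 (0.967 to 2.01) in the positive gate, where the counting interval reached 1. Psma5 had 6.57, 5.39, 14, 14.3 and 14.4, level across the 3 bezafibrate gates and above both controls. Psma4 had 17.7, 19.0, 30.9, 29.6 and 22.7, and Psma3 had 26.9, 26.1, 36.3, 37.4 and 32.2. Psma7 differed least, with 27.1, 26.7, 31.5, 30.3 and 30.9. Its groups did not overlap, but its ratios of 1.16 (0.934 to 1.45) and 1.13 (0.899 to 1.43) had intervals that held 1.

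The beta subunits were more alike. All 7 were at least 2-fold higher on the log scale in the negative gate (10.2% of all genes), between 1.0 and 1.64. In the positive gate they lay between 0.63 and 1.18. Their transcripts were short, with a median of 899 bases. Less the median of genes of like length, the beta median was 0.94 in the negative and 0.46 in the positive gate. All 7 lay above their bin in each gate, against 4317 of 8651 genes with a length. The catalytic subunit of chymotrypsin-like activity, Psmb5, whose promoter is printed above, had 6.36, 9.05, 17.2, 18 and 17.5 normalised read counts, a ratio of 2.70 (1.81 to 4.14) in the negative and 1.98 (1.38 to 2.90) in the positive gate. The caspase-like subunit Psmb6 had 14.8, 16.6, 30.7, 26.3 and 26.1, with ratios of 2.07 (1.59 to 2.74) and 1.59 (1.20 to 2.11). The trypsin-like subunit Psmb7 had 12.5, 12.9, 36.0, 30.6 and 28.6, with ratios of 2.87 (2.17 to 3.86) and 2.36 (1.76 to 3.21). For each of the 3 catalytic subunits the lowest bezafibrate library exceeded the highest control library. This held for 35.7% of all genes analysed and 57.2% of the genes in the 2 shortest length bins. The non-catalytic Psmb1, Psmb2, Psmb3 and Psmb4, which complete the ring, had ratios of 2.42 to 3.51 in the negative gate and 1.85 to 1.90 in the positive gate. Psmb2 had the largest of these ratios in the negative gate, with values of 5.54, 7.33, 19.5, 13.9 and 14.3.

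In the regulatory particle the 6 ATPases (Psmc1 to Psmc6), which unfold substrates, had median differences of 0.54 in the negative and 0.22 in the positive gate. All 6 were above 0 in both gates, against 51.4% and 50.4% of all genes. Psmc6 had 9.85, 9.49, 23.3, 18.1 and 18.7 normalised read counts and ratios of 2.37 (1.71 to 3.33) and 1.91 (1.34 to 2.77). Its 3 bezafibrate libraries were high and both controls low. Psmc1 had 20.7, 27.2, 40.4, 31.4 and 30.5, highest in the bezafibrate negative library, with ratios of 1.95 (1.55 to 2.46) and 1.15 (0.919 to 1.46). Psmc2 had 17.7, 13.2, 26.9, 21.4 and 26.6, with ratios of 1.52 (1.18 to 1.99) and 1.63 (1.20 to 2.24). Psmc4 had 30.8, 30.0, 44.1, 33.3 and 38.6, with ratios of 1.43 (1.18 to 1.75) and 1.11 (0.892 to 1.38). The intervals of Psmc1, Psmc2 and Psmc4 overlapped those of Psmc6 in both gates. Psmc3 and Psmc5 had ratios between 1.06 and 1.19 with intervals that held 1.

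The non-ATPase base subunits were uneven. Psmd1, a large scaffold, had 32.0, 34.1, 56.4, 50.9 and 45.8, with ratios of 1.76 (1.46 to 2.13) and 1.49 (1.23 to 1.82). Psmd2, a scaffold that docks ubiquitin shuttle proteins, had 53.6, 61.7, 69.8, 71.1 and 75.4, with ratios of 1.30 (1.12 to 1.52) and 1.15 (0.992 to 1.34). The ubiquitin receptor Psmd4 had 43.5, 50, 42.1, 38.0 and 42.9. Its highest library was control positive, and its 3 bezafibrate libraries lay under both controls. The Psmd4 ratio was 0.968 (0.811 to 1.16) in the negative and 0.759 (0.632 to 0.913) in the positive gate. Scaled by column totals its log2 difference turned to 0.18 in the negative gate and was -0.19 in the positive gate.

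The 8 lid subunits had median differences of 0.37 in both gates. The lid deubiquitinase Psmd14, which cuts the ubiquitin chain from the substrate, had 4.93, 8.62, 12.3, 13.1 and 13.3 normalised read counts, with ratios of 2.49 (1.57 to 4.08) and 1.52 (1.03 to 2.27). Psmd6 had 5.54, 10.1, 12, 12.6 and 13.6, the same order of libraries as Psmd14, with control negative lowest. Psmd8, a late-joining lid subunit, had 28.5, 21.6, 45.6, 35 and 39.3, and ratios of 1.60 (1.31 to 1.96) and 1.62 (1.28 to 2.08). Psmd3, at chr11:98682554-98695979 (GRCm38, 12 exons), went the other way with 87.7, 77.2, 74.4, 69.8 and 72.7. By read count, without length correction, it was the highest regulatory subunit of both control libraries, and all 3 bezafibrate libraries lay below them. The Psmd3 ratio was 0.848 (0.747 to 0.965) in the negative and 0.905 (0.785 to 1.04) in the positive gate. Scaled by column totals its log2 differences were -0.0036 and 0.061, so its lower level in the bezafibrate libraries depended on the scaling. Psmd7, the partner of Psmd14 in the lid, had 26.3, 27.4, 24.0, 22.9 and 26.4, and its libraries overlapped. Psmd11 had 56.9, 65.3, 75.8, 60.8 and 62.5, Psmd12 had 20.1, 18.1, 22.9, 26.0 and 21.9, and Psmd13 had 14.6, 13.2, 18.5, 18.3 and 21.9. Of these only Psmd11 overlapped between treatments.

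The core to regulatory read ratio summed these differences within each library, where a scaling factor cancels. It was 0.332 (0.307 to 0.36) in control negative, 0.361 (0.334 to 0.390) in control positive, 0.585 (0.559 to 0.613) in bezafibrate negative, 0.561 (0.532 to 0.592) in bezafibrate positive and 0.512 (0.487 to 0.538) in bezafibrate high. The intervals of the control libraries did not reach those of the bezafibrate libraries. Per transcript length, summed core values were 0.555, 0.603, 0.998, 0.946 and 0.876 times the summed regulatory values. The per-length median of the core was 8.29, 9.63, 22.1, 18.5 and 18 normalised read counts per kilobase, and that of the regulatory particle 13.0, 14, 18.1, 16.4 and 16.7. By this measure the median core subunit lay below the median regulatory subunit in both control libraries and above it in all 3 bezafibrate libraries. Division by length is the same in every library, so it leaves in place the relation of treatment difference to length described below. Less the median of genes of like length, core minus regulatory was 0.40 in the negative and 0.39 in the positive gate, in place of 0.89 and 0.61.

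**Figure D3:**
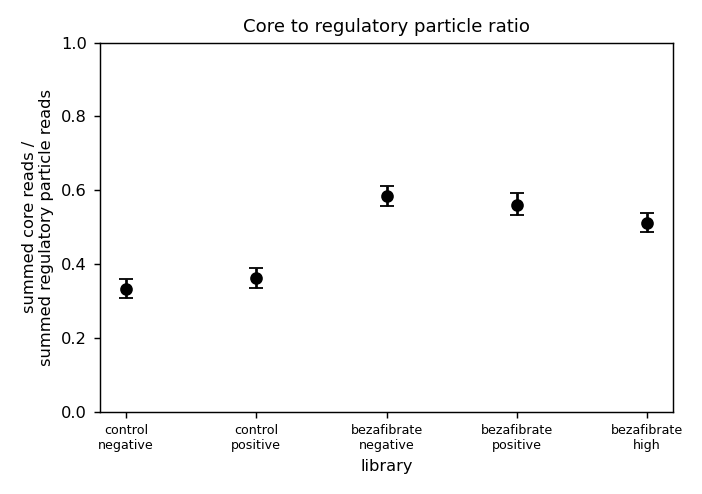
Summed reads of the 14 core genes divided by the summed reads of the 17 regulatory genes in each library, with exact 95% intervals for counting error. The control libraries sit at 0.332 and 0.361 and the bezafibrate libraries between 0.512 and 0.585. The ratio is not corrected for transcript length.

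Levels also lay closer together in the bezafibrate libraries, in the core and in the regulatory particle alike. The highest core subunit had 9.43 and 5.64 times the value of the lowest in the control libraries, and 2.86, 3.70 and 3.48 times in the bezafibrate libraries, without length correction. For the regulatory particle this ratio was 17.8 and 8.95 in the control libraries and 6.32, 5.64 and 5.66 in the bezafibrate libraries. The SD of log2 values over the 14 core genes was 0.92, 0.75, 0.47, 0.56 and 0.58, and over the 17 regulatory genes 1.07, 0.98, 0.83, 0.78 and 0.77. Per kilobase, the core SD was 1.14, 0.99, 0.80, 0.86 and 0.91, and the regulatory SD 0.98, 0.91, 0.70, 0.64 and 0.66. The lowest core gene of a control library rested on few reads, with 14 in control negative. Among core genes, those with few reads in the control libraries, without length correction, had the larger differences. Across the 14 core genes, the level in control positive and the difference in the negative gate, which share no library, had a Pearson r of -0.78 and a Spearman rho of -0.76. For the level in control negative and the difference in the positive gate, r was -0.58. The same r values were -0.60 and -0.58 for the 17 regulatory genes, -0.46 and -0.57 for 74 ribosomal protein genes, and -0.17 and -0.18 for all 8973 genes. Genes are not independent replicates, and the gates of a treatment may share animals and handling.

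Transcript length moved with the treatment difference across the whole table. Genes in the shortest bin, 238 to 1017 bases, had median differences of 0.70 in the negative and 0.45 in the positive gate, and those in the next bin, up to 1358 bases, 0.42 and 0.21. The median transcript of a core subunit was 1162.5 bases, from 766 for Psmb3 to 2911 for Psma2, that of a regulatory subunit 1636 bases, and that of all genes 3145 bases. Of the core subunits 11 of 14 fell in the 2 shortest bins, against 2 of 17 regulatory subunits. In those bins 48.3% of genes were at least 1.5-fold higher in the negative gate and 34.8% in the positive gate. After the median of genes of like length was subtracted, the median of the 39 members was 0.45 and 0.37, the core median 0.78 and 0.49 and the regulatory median 0.38 and 0.11. Of the core subunits 13 of 14 lay above their length bin in each gate, and of the regulatory subunits 13 and 11 of 17. Of all genes with a length, 4317 of 8651 did so in each gate. The core median minus the regulatory median was 0.89 and 0.61 as measured, and 0.40 and 0.39 after this subtraction. The part of RNA integrity or library preparation in the relation to length was not tested. Ribosomal proteins, another set of short transcripts with a median of 896.5 bases, had median differences of 0.77 and 0.49, and 0.23 and 0.12 after the same subtraction. The 8 subunits of the CCT chaperonin, a ring complex that folds proteins, had 0.42 and 0.32, and 0.39 and 0.33 after it.

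**Figure D4:**
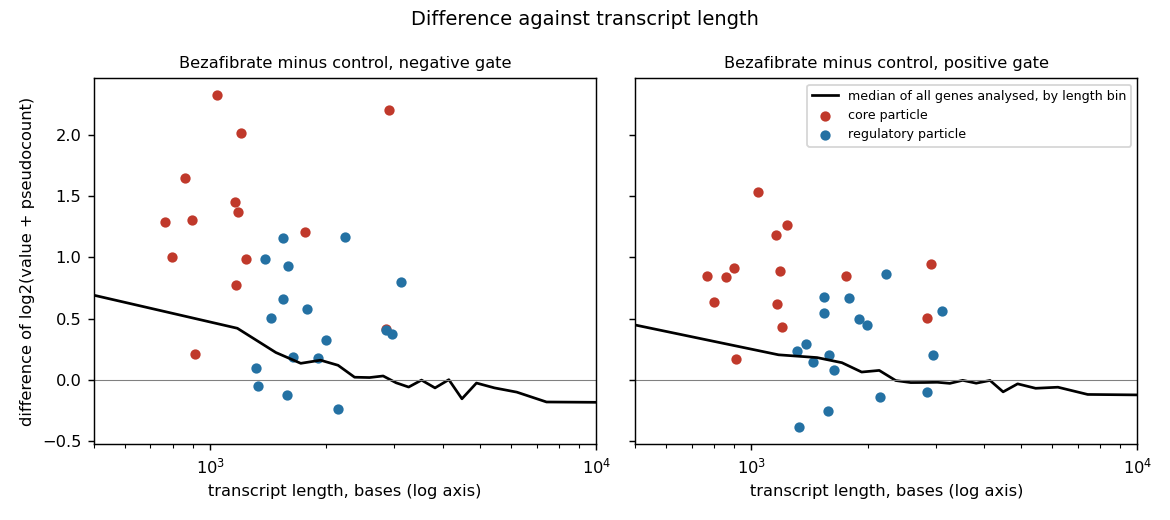
Difference of log2(value + pseudocount) between bezafibrate and control libraries against transcript length (log axis, bases) for core (red) and regulatory (blue) genes in the negative (left) and positive (right) gate; the black line joins the medians of all genes analysed in 20 length bins. The line is highest for the shortest transcripts (0.70 and 0.45). In each panel 13 of the 14 core genes lie above the median of their bin, against 4317 of 8651 genes with a length.

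The inducible core subunits analysed had a median difference of 0.61 in the negative and 0.42 in the positive gate. Psmb8, which replaces Psmb5, had 4.72, 4.96, 8.40, 6.15 and 11.5 normalised read counts, highest in the bezafibrate high library. Its ratio of bezafibrate to control was 1.78 (1.09 to 3.0) in the negative and 1.24 (0.722 to 2.17) in the positive gate. Psmb10, which replaces Psmb7, had 9.44, 10.1, 13.7, 15.6 and 12.9, with ratios of 1.45 (1.02 to 2.11) and 1.54 (1.08 to 2.23). Psmb9, which replaces Psmb6, was under the filter with 8, 8, 56, 16 and 25 reads, and the bezafibrate negative library alone stood out. Per transcript length, the inducible genes made up 23.7% (19.0 to 29.1), 22.3% (17.8 to 27.3), 19.3% (16.9 to 21.8), 18.1% (15.5 to 21.0) and 20.1% (17.6 to 22.9) of the 3 pairs. These intervals overlapped. The share of Psmb10 in its pair with Psmb7 was 40.0% (30.8 to 49.9) and 40.9% (31.6 to 50.8) in the control libraries, and 25.2% (21.0 to 29.8), 31.1% (26.0 to 36.6) and 28.5% (23.7 to 33.8) in the bezafibrate libraries. It was lower in all 3, with intervals that overlapped the controls except in bezafibrate negative. The share of Psmb8 with Psmb5 lay between 15.9% and 29.1%, and that of Psmb9 with Psmb6 between 5.35% and 12.6%.

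**Figure D5:**
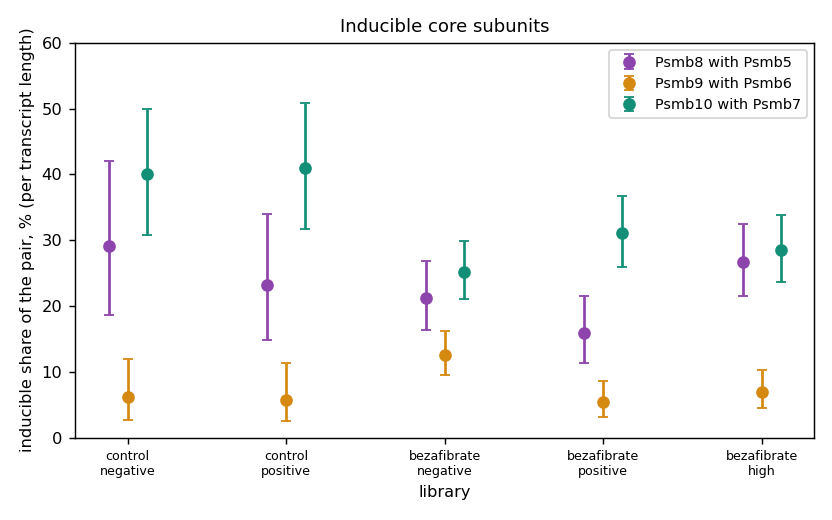
Share of each inducible subunit in the pair with its constitutive counterpart, per transcript length (percent), in the 5 libraries, with exact 95% intervals for counting error. Psmb10 holds 40.0% and 40.9% of its pair in the control libraries and 25.2% to 31.1% in the bezafibrate libraries, while the other pairs show no such separation.

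Of the alternative activators, Psme1 and Psme2 together form the interferon-inducible cap. Psme1 had 20.5, 22.2, 33.7, 34.8 and 32.9, with ratios of 1.64 (1.30 to 2.09) and 1.57 (1.24 to 2.0). Psme2 had 14.6, 17.7, 34.7, 24.0 and 26.9, with ratios of 2.38 (1.82 to 3.14) and 1.36 (1.03 to 1.80). Both were higher in every bezafibrate library, and Psme2 shares sequence with its copy Psme2b, so the division of reads between them is uncertain. Psme3, which forms a nuclear cap, had 43.9, 38.4, 38.8, 37.7 and 37.7. Control negative was its highest library and the other 4 lay together. Its log2 differences of -0.18 and -0.026 turned to 0.052 and 0.18 when scaled by column totals. Psme4, a nuclear activator linked to histone turnover, had 61.8, 66.8, 81.7, 79.8 and 74.5, with ratios of 1.32 (1.15 to 1.52) and 1.19 (1.03 to 1.38).

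Of the chaperones that assemble the regulatory base, Psmd5 had 5.95, 9.05, 10.9, 6.78 and 7.86 and Psmd9 had 12.7, 10.6, 13.6, 13.9 and 9.86, and both overlapped between treatments. Psmd5 differed in sign between gates, with ratios of 1.84 (1.19 to 2.91) in the negative and 0.749 (0.478 to 1.17) in the positive gate. The chaperone Psmd10 was under the filter with 2, 4, 16, 10 and 18 reads. The other members under the filter were the testis core subunit Psma8 with at most 10 reads in a library, the thymus core subunit Psmb11 with at most 9, Psme2b with at most 13 and Psmc3ip with at most 3. Psmc3ip encodes a meiotic recombination factor and no proteasome subunit, although its symbol fits the rule.

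Gates were also compared within each treatment. Between the control gates the median of the 39 members was 0.10. Positive was above negative for 25 members (52.1% of all genes), and at least 1.5-fold higher for Psma1, Psmd6 and Psmd14 (1.77%). Psma1 had the highest ratio of these, 2.10 (1.26 to 3.58), and Psmd6 followed with 1.83 (1.12 to 3.05). Psmc2 was lowest, at 0.745 (0.527 to 1.05), and Psmd8 was at 0.755 (0.578 to 0.984). Counting intervals lay above 1 for 4 members (4.93%) and below 1 for Psmd8 alone (4.41%).

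Between the bezafibrate positive and negative gates the members' median was -0.09. Positive was below negative for 28 members (51.6%), and at least 1.5-fold lower for Psma1, Psma2 and Psmd5 (2.64%). Psma2 was lowest, at a ratio of 0.601 (0.437 to 0.818), and Psma1 next, at 0.626 (0.480 to 0.811). Psmb10 and Psmd12 were the highest, with ratios of 1.14 (0.854 to 1.51) and 1.13 (0.911 to 1.41). Counting intervals lay below 1 for 13 members (18.6%), among them Psma1, Psma2, Psma6, Psmb2 and Psmb3 of the core, and above 1 for none (13.7%). The median was -0.028 when scaled by totals without the 100 highest genes. Length moved with this comparison too, with a median of -0.17 for genes of the shortest bin. Less the median of genes of like length, the members' median was -0.033. In these gates Psma1, at a log2 difference of -0.64, and the core median, at -0.20, lay on the other side of 0 from the control gates, and this difference was not tested. The core median was -0.036 less the length median, with 6 of 14 core subunits above their bin, against 4317 of 8651 genes.

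The high gate was close to the positive gate, with a members' median of 0.00 and 21 members above 0 (49.9%). Psmb8 alone was at least 1.5-fold higher (0.802%), at a ratio of 1.86 (1.26 to 2.80). Counting intervals lay above 1 for Psmb8 (8.21%) and below 1 for Psma4, at 0.764 (0.618 to 0.946), and Psmd9, at 0.711 (0.515 to 0.98) (7.75%). Psmc2 was the next highest, at 1.24 (0.995 to 1.56). Compared with bezafibrate negative, bezafibrate high had a median of -0.15 and 30 members below 0 (53%). Less the median of genes of like length the members' median was -0.036, with 16 of 39 above their bin, against 4317 of 8651 genes. The shortest bin of all genes had a median of -0.20. Psma1 and Psma2 were at least 1.5-fold lower (2.28%), at ratios of 0.511 (0.391 to 0.665) and 0.579 (0.428 to 0.779). The highest ratios were those of Psmb8, 1.36 (0.974 to 1.92), and Psmd13, 1.18 (0.935 to 1.49). Counting intervals lay below 1 for 11 members (16.9%) and above 1 for none (12.2%).

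Treatment was also fitted over the 4 negative and positive libraries with gate as a covariate (limma). This fit has 1 residual degree of freedom, the gate by treatment difference, and is no test between replicate mice. At a Benjamini-Hochberg adjusted threshold of 0.05, limma placed 23 of the 39 members higher in the bezafibrate libraries, against 24.5% of genes, and 0 lower, against 20.8%. Unadjusted limma p-values were under 0.05 for 25 members in either direction, and for 4640 of the 8973 genes. edgeR on the recovered reads also placed 23 members higher (24.1% of genes) and 0 lower (21.7%). Its unadjusted p-values were under 0.05 for 24 members and for 4673 of the 8973 genes. With a filter at 20 times the pseudocount, limma placed 13 of 24 members higher (29.1% of genes) and 0 lower (25.6%). Scaled by column totals, limma placed 31 members higher (35.8% of genes) and 0 lower (11.5%), and 3223 genes higher and 1038 lower in place of 2196 and 1868.

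Genes around the proteasome were taken from lists of its known partners. Lists hold older and newer symbols of some genes. Their counts and medians stand against those of all genes, of which 51.4% were above 0 (median 0.02) for the negative gate and 50.4% (median 0.00) for the positive one. Of 16 symbols of assembly and associated factors 10 were analysed, with medians of 0.43 and 0.28; 9 and 7 were above 0. Pomp, which matures the core particle, had 12.7, 10.3, 28.9, 23.3 and 21.7 normalised read counts, with ratios of 2.27 (1.71 to 3.06) and 2.25 (1.62 to 3.19) between bezafibrate and control. These libraries ordered by treatment without overlap, like the core subunits. The inhibitor Psmf1 had ratios of 1.72 (1.31 to 2.27) and 1.46 (1.09 to 1.97), and the core assembly chaperone Psmg2 1.73 (1.03 to 3.01) and 2.19 (1.15 to 4.48). The gene of the highest mean read count on the list, AI314180, the mouse symbol of the proteasome adaptor Ecm29, was nearly level at 93.0, 87.7, 95.7, 97.4 and 87.3.

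Of the transcription factor route, 4 of 5 listed genes were analysed and had medians of -0.27 and -0.21, with 3 of 4 below 0 in each gate; scaled by column totals, the medians were -0.035 and -0.0020, and Nfe2l1 and Nfe2l2 remained below 0 in both gates while Ddi2 did not. Nfe2l1 had 117.8, 110.8, 92.8, 92.7 and 94.5, lower in all bezafibrate libraries, with ratios of 0.787 (0.704 to 0.881) and 0.836 (0.742 to 0.943). Nfe2l2, the factor of the oxidative stress response, had 134.1, 136.5, 89.0, 109.5 and 105.8. Ddi2, the protease that activates the Nfe2l1 product, had 380.2, 405.7, 332.6, 363.1 and 367.7. Less the median of genes of like length, the medians of the 4 genes were -0.094 in the negative and -0.090 in the positive gate. Ddi2 was then at 0 and -0.023, Nfe2l1 at -0.19 and -0.16 and Nfe2l2 at -0.61 and -0.31, while Ngly1 lay above 0 at 0.081 and 0.11. All these values are of mRNA, and the factor's activity was not measured.

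Of 15 symbols of ubiquitin supply and delivery 14 were analysed, and they had medians of 0.33 and 0.10, with 11 and 8 above 0, the latter near the share of all genes. Rps27a, which fuses ubiquitin to a ribosomal protein, had ratios of 1.51 (1.21 to 1.90) and 1.70 (1.36 to 2.14). Uba1, the ubiquitin-activating enzyme, had 88.7, 87.7, 161.7, 112.8 and 129.9. Of 13 interferon and antigen presentation genes 11 were analysed, with medians of 0.16 and 0.24 and 8 above 0 in each gate. B2m, the light chain of MHC class I, had 125.0, 124.4, 513.9, 338.2 and 332.7, and Erap1, which trims antigenic peptides, had 19.1, 20.9, 60.1, 46.5 and 43.7. Both had bezafibrate to control ratios between 2.22 and 4.11 over the negative and positive gates. H2-K1, a class I heavy chain, had ratios of 1.29 (1.22 to 1.37) and 1.18 (1.11 to 1.26). Nlrc5, the class I transactivator, named here after its values were seen, was lower, with 98.1, 105.0, 41.9, 57.4 and 58.2. Scaled by column totals, which placed 5789 and 5893 of all 8973 genes above 0, 10 of the 11 did so in each gate, all but Nlrc5. Within the CCT chaperonin, Tcp1 had ratios of 1.81 (1.48 to 2.22) and 1.33 (1.10 to 1.62), Cct6a 1.65 (1.24 to 2.21) and 1.40 (1.04 to 1.90), Cct7 1.23 (0.987 to 1.55) and 1.41 (1.10 to 1.80), and Cct8 1.46 (1.15 to 1.87) and 1.44 (1.11 to 1.87).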

How the data were processed

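The data are a table of normalised signal per gene that the authors deposited for 5 libraries. The submitters' processing notes name build mm10 and the tools Trimmomatic 0.36, Bowtie2, RSEM and edgeR; the sources used here give neither their roles nor the annotation, the strand setting or the normalization. Within each column the values were multiples of the smallest one, to 0.001 reads, for 100% of genes, so the signal the authors deposited is a scaled read count. RSEM can divide reads between near-identical genes.

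Genes with a mean of at least 5.02 were analysed, and differences are of log2(value + 1.0035), which understates differences of low genes. The mean is over all 5 libraries, so a gene can pass the filter through the libraries of 1 treatment alone. Ratios are of deposited values. Transcript length is that of the longest principal GENCODE transcript and was found for 96.4% of genes analysed. Named with values were the catalytic, inducible and activator subunits, Psmd14, Psmd4, Psmd2, the 2 highest and 2 lowest members of each of 6 comparisons and, for each partner list, the most abundant and the most different genes; other members are given for completeness. Some genes of the ubiquitin list that this rule names are not reported here. Members and lists were chosen with earlier results of these data known. Fits used limma 3.58.1 and edgeR 4.0.16 in R 4.3.3. They were also run on simulated independent libraries without differences between mice, which cannot check them for the unreplicated libraries here. Python 3.11.15, pandas 2.3.3 and scipy 1.17.1 gave the rest. Alternatives covered pseudocount, filter, scaling, mean against median, length and list membership. Protein sequences were not used here.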

Additional observations from a re-analysis of the deposited data

Results flagged for a closer look

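Psma1 and the core particle differed in opposite directions between the gates of the 2 treatments. The log2 difference of Psma1, positive minus negative gate, was 0.94 in the control libraries and -0.64 in the bezafibrate libraries, with counting intervals of the ratio of 1.26 to 3.58 and 0.480 to 0.811. The median of the 14 core subunits was 0.23 in the control and -0.20 in the bezafibrate libraries. Less the median of genes of like transcript length, it was 0.20 and -0.036. With 1 library a group the difference was not tested. Of the 39 members 22 had opposite signs in the 2 gate differences, against 52.1% of all genes analysed.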

How the results depend on the processing

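No paired analysis was possible because the labels carry no replicate numbers and each group has 1 library; leaving out a library was not run, since it empties a group. Control subunits of the lowest level rest on few reads, which limits their ratios. The alternatives by median basic transcript length, and by length for the members' median, were chosen after seeing the data.

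For the 39 members, the median difference between bezafibrate and control in the negative gate (0.72) was 0.59 with a pseudocount of 5, 0.81 with 0.1, 0.54 with a filter at 20 (24 members left), 0.91 scaled by column totals, 0.64 by totals without the 100 highest genes, 0.78 as a mean and 0.45 less the length median. In the positive gate (0.50) it was 0.41 with a pseudocount of 5, 0.44 with no filter, 0.70 by column totals and 0.37 less the length median. Pseudocounts and filters are multiples of 1.0035. Between the bezafibrate positive and negative gates (-0.09) it was -0.14 with no filter, -0.028 by totals without the 100 highest genes, -0.17 as a mean and -0.033 less the length median. High minus positive (0.00) was 0.055 by column totals. High minus negative (-0.15) was -0.087 by column totals, -0.097 without the 100 highest genes and -0.036 less the length median.

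Core minus regulatory particle in the negative gate (0.89) was 0.67 with a pseudocount of 5, 0.71 with the filter at 20, 0.40 less the length median and 0.45 by median basic length; in the positive gate (0.61) it was 0.39 and 0.40 by the same lengths. With the filter at 20 it was -0.00089 between control gates (0.17) and 0.026 between bezafibrate gates (-0.11). It stayed above 0 under all 9 alternatives in both treatment comparisons, from 0.40 to 0.96 and from 0.39 to 0.65. The causes of these shifts were not tested.

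Inducible shares as plain read shares were 32.0%, 30.4%, 26.1%, 24.5% and 27.7%. With the filter at 20, limma placed 1435 genes (29.1%) and 13 of 24 members higher; by column totals it placed 1038 genes lower. Of 272 alternative values for named members, 269 stayed within the counting interval and 3 did not, all by column totals in the negative gate: Psmd2 at 0.61, Psme4 at 0.63 and Psmd3 at -0.0036.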
